A study of Mus musculus with 14 samples.

Results

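Interleukin and interleukin receptor genes were followed in tumours of B16F10, a transplantable melanoma line, growing in C57BL/6 mice treated by adoptive T cell transfer. All array probes counted whose gene name in the scanner files begins with Il and a digit, apart from Il4ra and Il8rb, and 1 probe was kept per gene. This gave 82 genes out of 27745 gene names on the array. Of the 82, 37 encode ligands, 4 soluble antagonists, 40 receptor chains and 1, Il4i1, an enzyme. The array's names are old in places: Il28, Il28ra and Il8ra are now Ifnl3, Ifnlr1 and Cxcr1.

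The mice carried established tumours and belonged to 4 arms. In the first, cytotoxic T lymphocytes (CTLs) specific for gp100, a melanocyte protein, were given with a monoclonal antibody against interferon gamma (CTL + anti-IFNg), and in the second with rat IgG as antibody control (CTL + IgG). In the third, CTLs were given alone (CTL), and the fourth was untreated. The CTLs were CD90.1+ and had been activated in culture, and both antibodies were injected into the peritoneum on the day of transfer and 2 days later. Both antibody arms have 1 array each on days 3, 5 and 7 after transfer, with RNA pooled from 3 whole tumours per array. CTL and untreated arms have 1 array each on days 1, 3, 5 and 7, with RNA pooled from 4 tumours. No arm has a second array on any day, so all errors and tests rest on the spread over days 3, 5 and 7 and say nothing of the spread between mice.

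Values are levels on a log2 scale: the log2 of the scanner's processed signal minus the 75th percentile of its own array, so that 0 is that percentile and a step of 1 doubles the signal. Between 48.9% and 59.7% of an array's spots were well above background. The CTL array of day 5 had the lowest of these shares, and results were also computed without it. Markers of pigment cells showed the tissue to be the labelled one, since 5 of 6 listed melanocyte genes were measured and their mean level lay between 4.74 and 5.27 on all 14 arrays, with 0 changed in any comparison between arms. In bulk tumour RNA, fewer cells of a type and less RNA per cell cannot be told apart.

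Interleukins are secreted signals with which leukocytes and tissue cells instruct each other, and most act only on cells that display the matching receptor chains. Receptors of the IL-2, IL-7, IL-15 and IL-21 group share the common gamma chain and signal through Janus kinases and STAT proteins to keep T cells and natural killer cells alive and dividing. IL-1 family cytokines signal through a different adaptor route, are released by stressed or myeloid cells, and are held in check by decoy receptors, receptor antagonists and binding proteins. IL-12 and IL-18 together drive T cells to make interferon gamma, which in turn acts on tumour and myeloid cells.

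Fewer than 50 of the 82 genes could be followed. A gene was called measured where its probe was well above background on at least 3 of 14 arrays, which 39 genes met and 43 did not. Of the 43, 30 were well above background on 0 arrays and 13 on 1 or 2. The unmeasured genes include many T cell growth and helper cytokines: Il2, Il21, Il7, Il9, Il5, Il17a, Il22, Il10 and both IL-12 subunits, Il12a and Il12b. On these probes a level is only a bound. Of the 39 measured genes, 24 were well above background on all 14 arrays, and 1, Il1r2, passed only through the CTL and CTL + IgG arms, so that it had to differ between arms. Il7r passed only through arms given CTLs, being well above background on 0 untreated arrays. None of the 82 probes was saturated on any array.

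**Figure D1:**
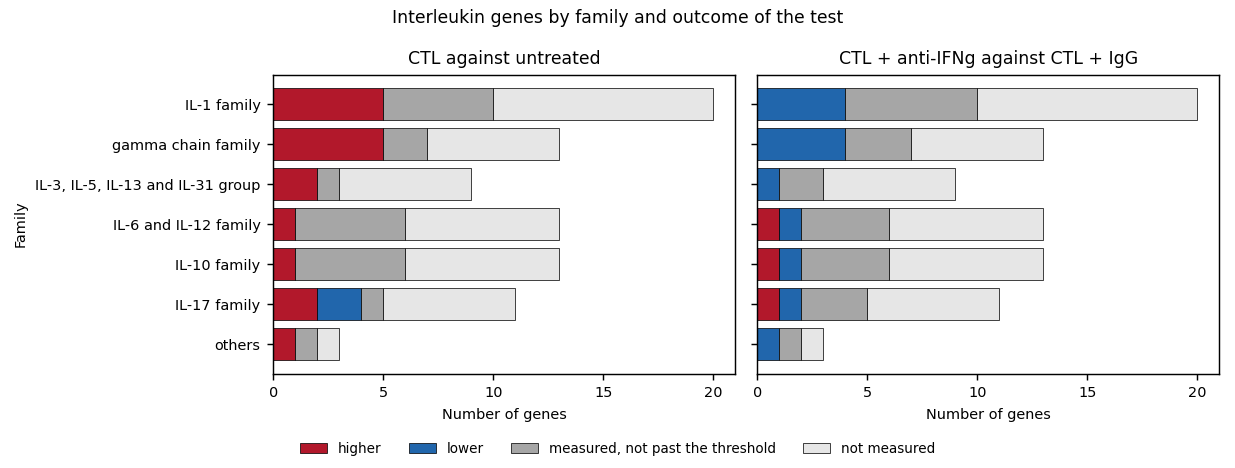
Number of genes in each interleukin family (horizontal axis, genes; vertical axis, family) by outcome of the test on days 3, 5 and 7, for CTL against untreated tumours (left) and CTL + anti-IFNg against CTL + IgG (right). In the gamma chain family 5 of 7 measured genes were higher with CTLs and 4 were lower with the antibody. Il7r, among the 5, was measured only through arms given CTLs. The pale bars show how much of each family was too dim to follow.

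After CTL transfer, tumours had higher levels of receptor chains of the common gamma chain group, of the IL-12 and IL-10 receptor chains Il12rb1 and Il10ra, and of inhibitors of the IL-1 family, while most ligands did not pass the test or could not be measured. Arrays of days 3, 5 and 7 from all arms were fitted together with arm and day as terms (limma, Benjamini-Hochberg adjustment over all 16628 genes, two-sided threshold 0.05). Of the 39 measured genes, 19 passed, 17 higher and 2 lower, where 32.0% of all genes passed, 10.3% higher and 21.7% lower. The median log2 change was 0.37 over the 39 genes and -0.11 over all genes tested. An unadjusted p under 0.05 was found for 21 of the 39 genes and for 7471 of all 16628. By role, 12 of 22 measured receptor chains were higher and 0 lower (13 with an unadjusted p under 0.05), 3 of 14 ligands were higher and 2 lower, and 2 of 2 antagonists were higher. The 3 CTL arrays and the 3 untreated arrays did not overlap in 19 of the 39 genes, or 48.7%, and in 41.0% of all genes. Without Il1r2, which had to differ, 18 genes passed. Il7r, which was measured only through arms given CTLs, is among the 18. Below, an error after ± is a standard error with n = 3 days.

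**Figure D2:**
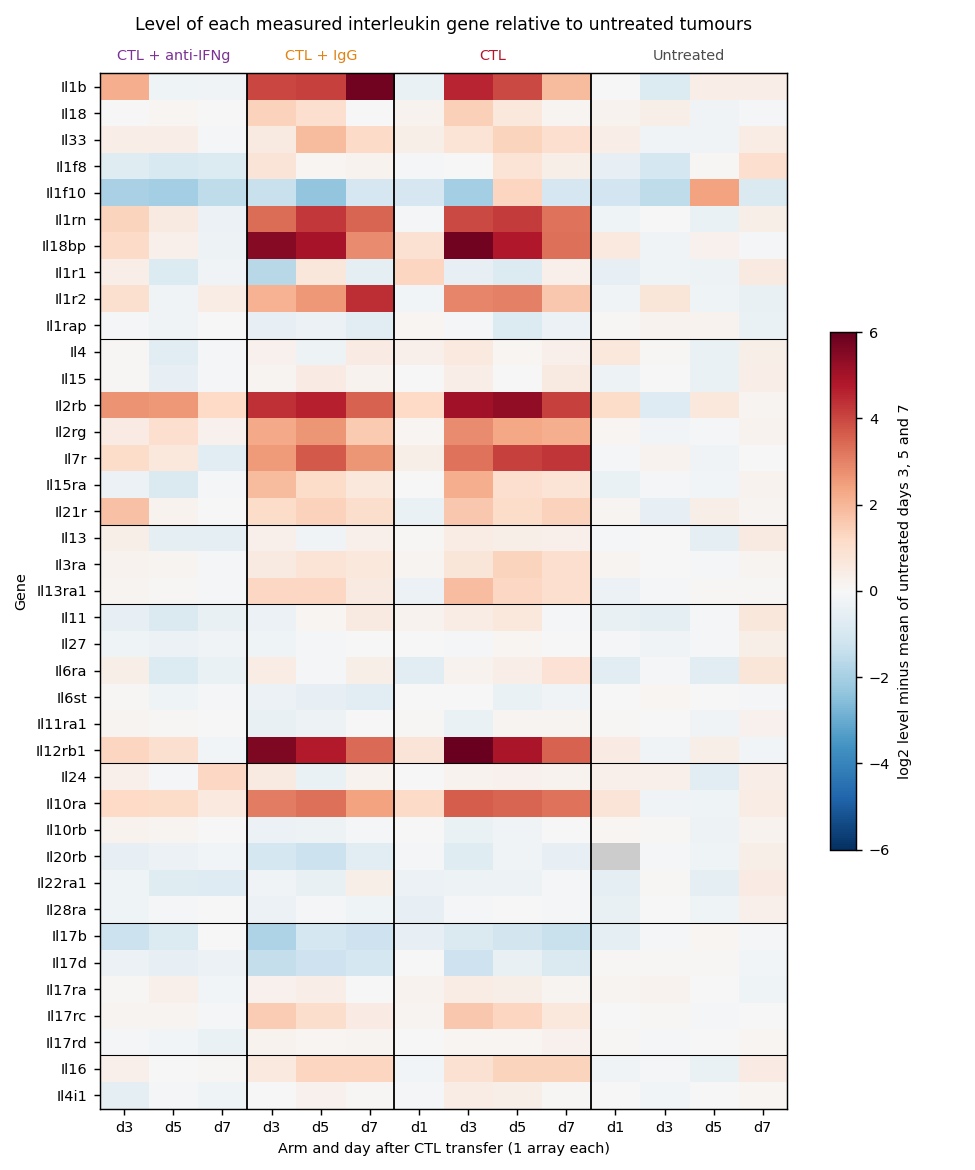
Level of the 39 measured genes (rows, grouped by family) on each array (columns, by arm and day after transfer), as the log2 level minus the mean of the untreated arrays of days 3, 5 and 7. Red marks higher and blue lower, and the grey cell is Il20rb on untreated day 1, where the spot was marked as an outlier. Rows such as Il2rb, Il12rb1 and Il18bp are red with CTLs and with CTL + IgG on days 3, 5 and 7 and pale on CTL day 1.

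All 5 measured receptor chains of the gamma chain family were higher with CTLs, among them Il7r, which was measured only through arms given CTLs. Il2rb, the beta chain of the IL-2 and IL-15 receptors, had levels of 0.90, 1.21 and -0.04 in CTL tumours on days 3, 5 and 7, against -4.88, -3.51 and -3.96 in untreated tumours. The change was 4.81 ± 0.38, or 28.0-fold (adjusted p = 0.000183), the largest among the 39. Every CTL array of those days lay more than 3 units above every untreated array of the same days, and Il2rb was not well above background on untreated day 3. Il2rg, the common gamma chain itself, had -1.13, -1.66 and -1.79 in CTL tumours and -4.12, -4.01 and -3.75 in untreated tumours, a change of 2.43 ± 0.28 (5.39-fold, adjusted p = 0.000909).

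Il7r, which pairs with the gamma chain to bind IL-7 and marks naive and memory T cells, had -1.33, -0.50 and -0.33 in CTL tumours against -4.40, -4.82 and -4.60 in untreated tumours. Il7r was near background on every untreated array, so the fitted change of 3.88 ± 0.47 (adjusted p = 0.00114) is given as at least 12.7-fold. It was well above background on 8 arrays, all of arms given CTLs, and entered this test only through them. The change is therefore a description, and Il7r also passed with no filter on dim probes. Its highest value with CTLs was on day 7, while that of Il2rg was on day 3. Il15ra, the chain that presents IL-15 to neighbouring cells, had -1.44, -2.58 and -2.80 in CTL tumours and -3.66, -3.77 and -3.41 in untreated tumours (1.34 ± 0.35, adjusted p = 0.0229), and 3 of the 4 untreated arrays measured it. Il21r, the IL-21 receptor, had -1.69, -2.21 and -1.96 against -3.81, -2.99 and -3.17 (1.37 ± 0.43, adjusted p = 0.0427). The same-day differences on days 3, 5 and 7 were 2.22, 1.19 and 0.61 for Il15ra and 2.12, 0.78 and 1.20 for Il21r.

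Their ligands gave no such pattern. Il15 had -2.08, -2.43 and -1.93 in CTL tumours and -2.43, -2.88 and -2.08 in untreated tumours, and its change of 0.32 ± 0.20 did not pass (adjusted p = 0.245). A second measured Il15 probe differed by 1.25 between the means of the same arms, so the probes do not give the same size. Il4 had 0.34 ± 0.15 and did not pass (adjusted p = 0.112). Il2ra, the high-affinity IL-2 receptor chain, was not well above background on its chosen probe, with levels between -5.37 and -4.03 on CTL arrays of days 3, 5 and 7 and between -5.06 and -4.91 on untreated arrays. Another Il2ra probe was well above background on 1 array, CTL day 3, at -3.98.

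Il12rb1, the chain shared by the IL-12 and IL-23 receptors, showed the second largest change. It had 3.54, 2.53 and 1.17 in CTL tumours on days 3, 5 and 7 against -2.59, -2.0 and -2.52 in untreated tumours, a change of 4.78 ± 0.40 (27.5-fold, adjusted p = 0.000241). Il12rb1 differences were 6.13 on day 3, 4.52 on day 5 and 3.69 on day 7. The partner chain Il12rb2, needed for the IL-12 response, stayed near background on all arrays. Il10ra, the IL-10-binding chain found mainly on leukocytes, had -0.05, -0.21 and -0.45 against -3.88, -3.93 and -3.26 (3.45 ± 0.27, 11.0-fold, adjusted p = 0.000181). Its widely expressed partner Il10rb had 4.44, 4.67 and 4.88 against 4.93, 4.55 and 5.09, and did not pass (-0.19 ± 0.15, adjusted p = 0.365). Of the 2 IL-10 receptor chains, then, the one restricted to leukocytes passed and the broadly expressed one did not, and their difference was not tested. Il20rb, a chain of the receptors for IL-19, IL-20 and IL-24, had -0.46 ± 0.18 (adjusted p = 0.0853), and with its 2 measured probes averaged it was -0.98 and passed.

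In the IL-1 family, 5 of 10 measured genes were higher and 0 lower, or 4 of 9 without Il1r2. Il1b, the inflammatory ligand made by myeloid cells, had 0.84, 0.22 and -1.84 in CTL tumours against -4.57, -3.34 and -3.35 in untreated tumours. Its change was 3.49 ± 0.92 (11.3-fold, adjusted p = 0.0239), with the largest standard error of the 19 genes. Il1b was not well above background on untreated day 3. The differences were 5.41 on day 3, 3.56 on day 5 and 1.51 on day 7. Il1rn, the IL-1 receptor antagonist, had 0.88, 1.11 and 0.17 against -3.06, -3.46 and -2.72 (3.80 ± 0.41, 13.9-fold, adjusted p = 0.000756). Ligand and antagonist were thus both higher in the same tumours, the antagonist with the smaller spread.

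Il1r2, the decoy receptor that binds IL-1 without signalling, had -2.47, -2.40 and -3.80 in CTL tumours against -4.71, -5.70 and -5.85 in untreated tumours. No untreated array had it well above background, so it was at least 2.84-fold higher with CTLs, given as a description because the gene was measured only through the arms where it was high. It did not pass in a fit with no filter on dim probes (adjusted p = 0.0518). The signalling receptor Il1r1 and its accessory chain Il1rap had -0.33 ± 0.58 and -0.43 ± 0.21 and did not pass (adjusted p = 0.688 and 0.153), although Il1rap passed as lower with the measured probes of each gene averaged. Il18bp, the secreted protein that traps IL-18, had 3.29, 2.27 and 0.79 against -2.74, -2.24 and -2.57 (4.63 ± 0.49, 24.8-fold, adjusted p = 0.000639). A second Il18bp probe differed by 4.04 between the same arms. Il18 itself, the ligand, had 1.54, 0.73 and 0.28 against 0.44, -0.10 and -0.01, and its 0.74 ± 0.27 missed the threshold (adjusted p = 0.0679).

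Il33, a nuclear alarmin of barrier and stromal cells, rose by 1.06 ± 0.30 (2.08-fold, adjusted p = 0.0311), with -1.06, -0.52 and -0.84 in CTL tumours and -2.10, -2.07 and -1.43 in untreated tumours. Il1a, the other IL-1 receptor agonist, and Il1rl1, the IL-33 receptor, were well above background on 0 arrays and on 1 array. The remaining measured ligands of the family, Il1f8 and Il1f10, had 0.37 ± 0.45 and -0.59 ± 0.96 and did not pass (adjusted p = 0.553 and 0.659).

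The IL-17 family held the 2 genes that fell. Il17d, an atypical ligand made outside the immune system, had -0.74, 0.06 and -0.36 in CTL tumours against 0.58, 0.59 and 0.35 in untreated tumours, and fell by 0.85 ± 0.18 on the log2 scale (adjusted p = 0.0116). Il17b had -4.16, -4.41 and -4.63 against -3.34, -3.19 and -3.34 (-1.11 ± 0.30, adjusted p = 0.0249). No CTL array of those days was well above background for Il17b, so untreated tumours were at least 1.42-fold higher, and with normexp background correction its change turned to 0.33. Its direction therefore depends on how the background was treated.

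Of the measured receptor chains of that family, Il17rc and Il17ra were higher and Il17rd did not pass (0.16 ± 0.11, adjusted p = 0.304). Il17rc, which pairs with Il17ra to bind IL-17A and IL-17F, had 5.78, 5.42 and 4.75 in CTL tumours and 4.21, 4.07 and 4.15 in untreated tumours (1.17 ± 0.20, 2.25-fold, adjusted p = 0.00453). A second bright Il17rc probe differed by 1.26, and the remaining one, well above background on 3 arrays, by -0.95, and with all 3 averaged the change was 0.49. Il17ra, the chain common to most IL-17 receptors, had -1.59, -1.67 and -1.86 against -1.79, -2.01 and -2.27 (0.32 ± 0.10, adjusted p = 0.0485), and its groups overlapped. Il17a was near background on all arrays.

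Among other members, Il3ra, the IL-3 receptor alpha chain, had 2.61, 3.24 and 2.88 in CTL tumours and 1.85, 1.78 and 2.04 in untreated tumours (1.02 ± 0.16, 2.03-fold, adjusted p = 0.00377). Il13ra1, which joins the IL-4 receptor alpha chain to bind IL-4 and IL-13, had -0.57, -1.17 and -1.40 against -2.52, -2.34 and -2.34 (1.35 ± 0.20, adjusted p = 0.00265). The decoy chain Il13ra2 was near background on all arrays. Il16, a chemoattractant ligand of CD4, had -2.30, -1.88 and -1.90 against -3.30, -3.63 and -2.74 (1.20 ± 0.24, adjusted p = 0.00894). These 3 genes were higher on every CTL array of days 3, 5 and 7 than on any untreated array of those days.

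In the IL-6 group no chain but Il12rb1 passed. Il6st, the shared signalling chain gp130, had 0.73, 0.37 and 0.57 in CTL tumours against 0.90, 0.76 and 0.63 in untreated tumours (-0.21 ± 0.10, adjusted p = 0.160). The ligand-binding chain Il6ra had 0.50 ± 0.31 (adjusted p = 0.238). Il27, a subunit of the heterodimeric cytokine IL-27, was well above background on all arrays and had 0.00 ± 0.13 (95% interval -0.29 to 0.30, adjusted p = 0.986). Il4i1, an amino acid oxidase made by myeloid cells, had 0.29 ± 0.13 (adjusted p = 0.128). None of these 4 genes passed.

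**Figure D3:**
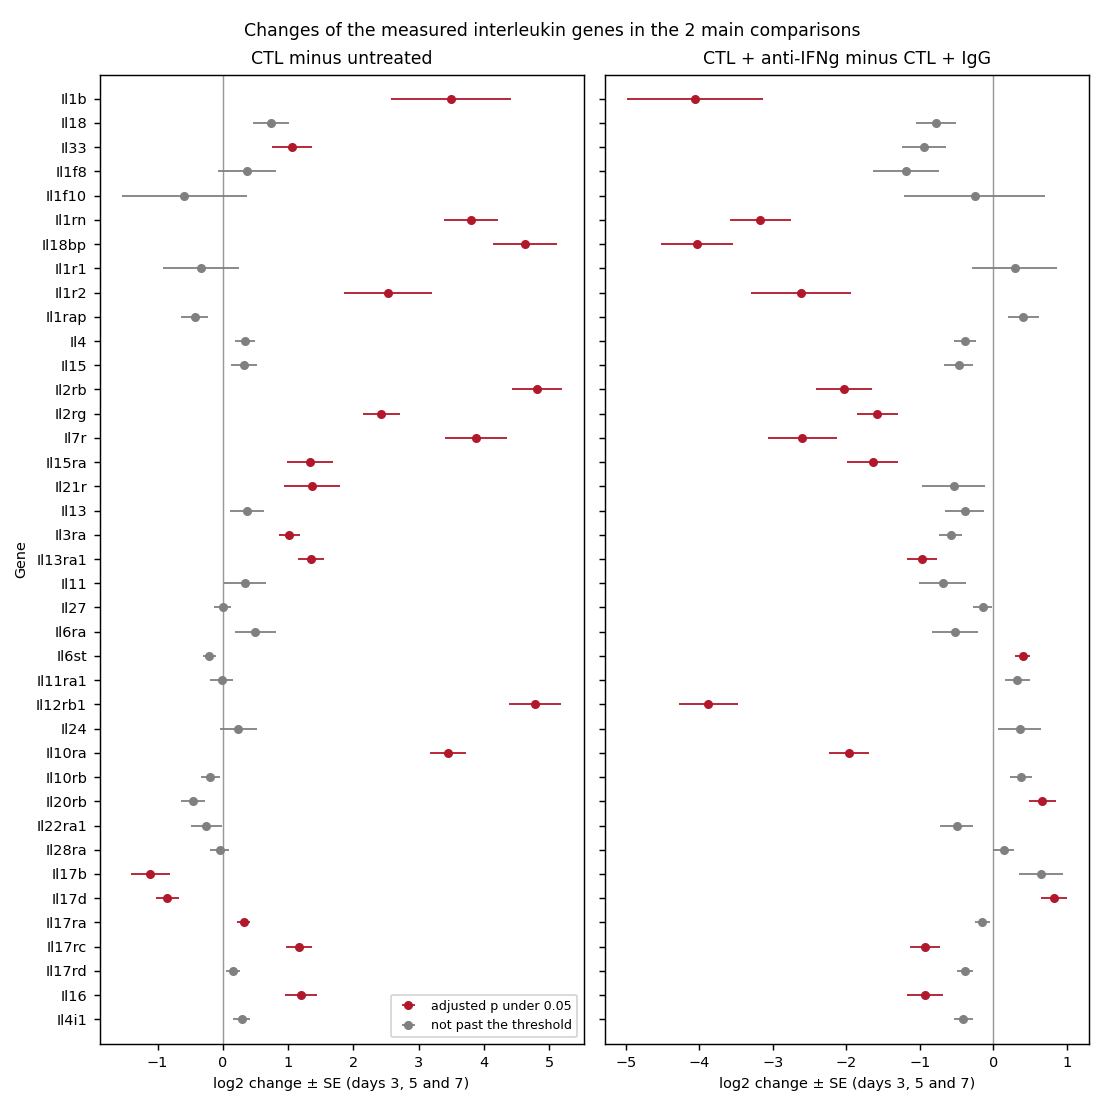
Log2 change with its standard error (horizontal axis) for each measured gene (vertical axis) over days 3, 5 and 7, for CTL minus untreated (left) and CTL + anti-IFNg minus CTL + IgG (right); red points passed an adjusted p of 0.05. On the left Il2rb, Il12rb1 and Il18bp lie beyond 4, and on the right Il1b and Il18bp lie beyond -4.

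How far the 19 calls depended on single days was uneven. Il10ra, Il12rb1, Il18bp, Il1rn, Il2rb, Il2rg and Il7r passed under all 14 alternatives run. Without day 5, these 7 were the only ones to pass. Il7r, among the 7, was measured only through arms given CTLs. Among the 14 is the authors' deposited table, which matched the values used here at r = 1, so its agreement adds no support. Without day 3, 10 passed, and Il15ra, Il16, Il17b, Il17d, Il17ra, Il17rc, Il1b, Il1r2 and Il33 did not. Without day 7, 18 passed, not all of them among the 19, and of the 19 Il17ra, Il21r and Il33 did not. With day 1 added, so that all 14 arrays were fitted under 1 CTL effect, 10 passed, where 11.0% of all genes did. Without the CTL array of day 5 alone, 13 passed, not all of them among the 19. Of the 19, Il15ra, Il17b, Il17ra, Il1b, Il1r2, Il21r and Il33 were the ones lost. With normexp background correction 22 were higher and 1 lower. Over all 16628 genes, 3021 were then higher and 2850 lower, against 1711 and 3608 here. The share of those calls that were higher was 51.5%, against 32.2% here. For the fits without a day or without the CTL array of day 5, the share of all genes that passed is not given here. Whether their loss of calls is particular to interleukin genes therefore cannot be told.

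Under the interferon gamma antibody, Il1b, the IL-1 inhibitors Il1rn and Il18bp, the receptor chains Il12rb1 and Il10ra, and 4 of 5 measured gamma chain receptors were lower. Set against CTL + IgG on the same days, CTL + anti-IFNg tumours had 16 of 39 measured genes past the threshold, 3 higher and 13 lower, where 12.8% of all genes passed, 6.76% higher and 6.06% lower. The median log2 change was -0.52, against 0.05 over all genes tested. The 3 arrays of each arm did not overlap in 25 of the 39, and in 36.2% of all genes. Without Il1r2, 15 genes passed. This count depended on single days: 5 passed without day 3 (Il12rb1, Il18bp, Il1rn, Il2rb and Il7r), 9 without day 7 and 0 without day 5 (20 with an unadjusted p under 0.05), and 0 passed when the 2 arrays of day 1, which hold neither arm, were added to the shared estimate of the spread. In that last fit 0.012% of all genes passed, and 24 of the 39 had an unadjusted p under 0.05. In the fit of days 3, 5 and 7 it was 25 of the 39, and 4945 of all 16628 genes. For the fits without a day, the share of all genes that passed is not given here. Whether their loss of calls is particular to interleukin genes therefore cannot be told.

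The largest drops were those of the ligand Il1b and the inhibitor Il18bp, both of the IL-1 family. Il1b had -1.57, -4.00 and -3.94 in CTL + anti-IFNg tumours on days 3, 5 and 7, against 0.26, 0.37 and 2.05 in CTL + IgG tumours, and fell by 4.06 ± 0.92 on the log2 scale (adjusted p = 0.0256). Il18bp had -1.35, -2.23 and -2.82 against 2.95, 2.43 and 0.32 (-4.04 ± 0.49, adjusted p = 0.00303). Both were 16-fold lower or more, at 16.7-fold and 16.4-fold. Il1rn had -1.73, -2.52 and -3.41 against 0.29, 1.15 and 0.40 (-3.17 ± 0.41, adjusted p = 0.00385). Il1r2 was near background on all CTL + anti-IFNg arrays and had -3.34, -2.84 and -0.97 in CTL + IgG tumours, at least 3.85-fold lower with the antibody. This too is a description, and with no filter on dim probes it did not pass (adjusted p = 0.0846).

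Arrays of the CTL + IgG and CTL arms stood apart in 2 of these genes on day 7, a difference not tested by day. On that day, Il1b and Il1r2 had 2.05 and -0.97 with CTL + IgG, each the highest level of that gene on any of the 14 arrays, and -1.84 and -3.80 with CTLs alone. Il18 had 0.07, 0.22 and 0.11 with the antibody against 1.49, 1.11 and 0.15 with IgG, and its -0.78 ± 0.27 missed the threshold (adjusted p = 0.0990). Il33 had -0.94 ± 0.30 (adjusted p = 0.0792).

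Il12rb1, Il10ra and 4 of the gamma chain receptors were lower as well, while Il21r (-0.54 ± 0.43, adjusted p = 0.428) and Il10rb (0.38 ± 0.15, adjusted p = 0.148) did not pass. Il12rb1 had -1.06, -1.41 and -2.52 in CTL + anti-IFNg tumours against 3.22, 2.41 and 1.03 in CTL + IgG tumours (-3.88 ± 0.40, 14.8-fold lower, adjusted p = 0.00170). Il2rb had -1.42, -1.50 and -2.94 against 0.26, 0.55 and -0.59 (-2.03 ± 0.38, adjusted p = 0.0127). With the antibody Il12rb1 was at its untreated level by day 7, at -2.52 in both arms, whereas Il2rb stayed above untreated tumours on all 3 days.

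Il7r had -3.53, -3.99 and -5.25 with the antibody against -2.06, -0.93 and -1.98 with IgG (-2.60 ± 0.47, adjusted p = 0.0110). Il10ra had -2.48, -2.57 and -3.09 against -0.61, -0.39 and -1.27 (-1.96 ± 0.27, adjusted p = 0.00454). Il15ra had -3.98, -4.49 and -3.66 against -1.69, -2.53 and -2.99 (-1.64 ± 0.35, adjusted p = 0.0205). The same-day difference of Il15ra was -2.29 on day 3 and -0.67 on day 7, and 1 of the 3 CTL + anti-IFNg arrays measured it, against 2 of 3 for Il7r. Il2rg had -3.48, -2.94 and -3.68 against -1.67, -1.29 and -2.41 (-1.58 ± 0.28, adjusted p = 0.00994).

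Smaller drops passed for Il13ra1, Il17rc and Il16, at -0.97 ± 0.20, -0.93 ± 0.20 and -0.93 ± 0.24 (adjusted p = 0.0181, 0.0206 and 0.0419). A second measured Il13ra1 probe differed by only -0.43 between the means of the same arms. With all measured Il17rc probes averaged, its value was -0.45 and did not pass. Il17d had 0.13, -0.01 and 0.13 with the antibody against -0.95, -0.72 and -0.57 with IgG, a rise of 0.83 ± 0.18 (adjusted p = 0.0232). Il6st had 0.81, 0.51 and 0.69 against 0.43, 0.29 and 0.09 (0.40 ± 0.10, adjusted p = 0.0420). Il20rb had -2.08, -1.95 and -1.77 against -2.67, -2.89 and -2.24 (0.67 ± 0.18, adjusted p = 0.0485). With both measured Il20rb probes averaged, the value was 0.52 and did not pass. Il17d, Il6st and Il20rb were the 3 genes higher with the antibody.

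CTL against untreated and CTL + anti-IFNg against CTL + IgG share no array, though they share the estimate of the spread. Their calls had 14 genes in common, 73.7% of the 19 and 87.5% of the 16, with opposite signs in all 14. Over all genes the calls in common were 34.3% of CTL calls and 85.5% of antibody calls, with opposite signs in 99.9%, so the opposite signs are not particular to interleukin genes. Il17b, Il17ra, Il21r, Il33 and Il3ra passed in the CTL comparison alone, and Il20rb and Il6st in the antibody comparison alone. Whether the effects on these 7 genes differ was not tested. Il3ra was the nearest to passing in both, with -0.58 ± 0.16 in the antibody comparison (adjusted p = 0.0535).

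**Figure D4:**
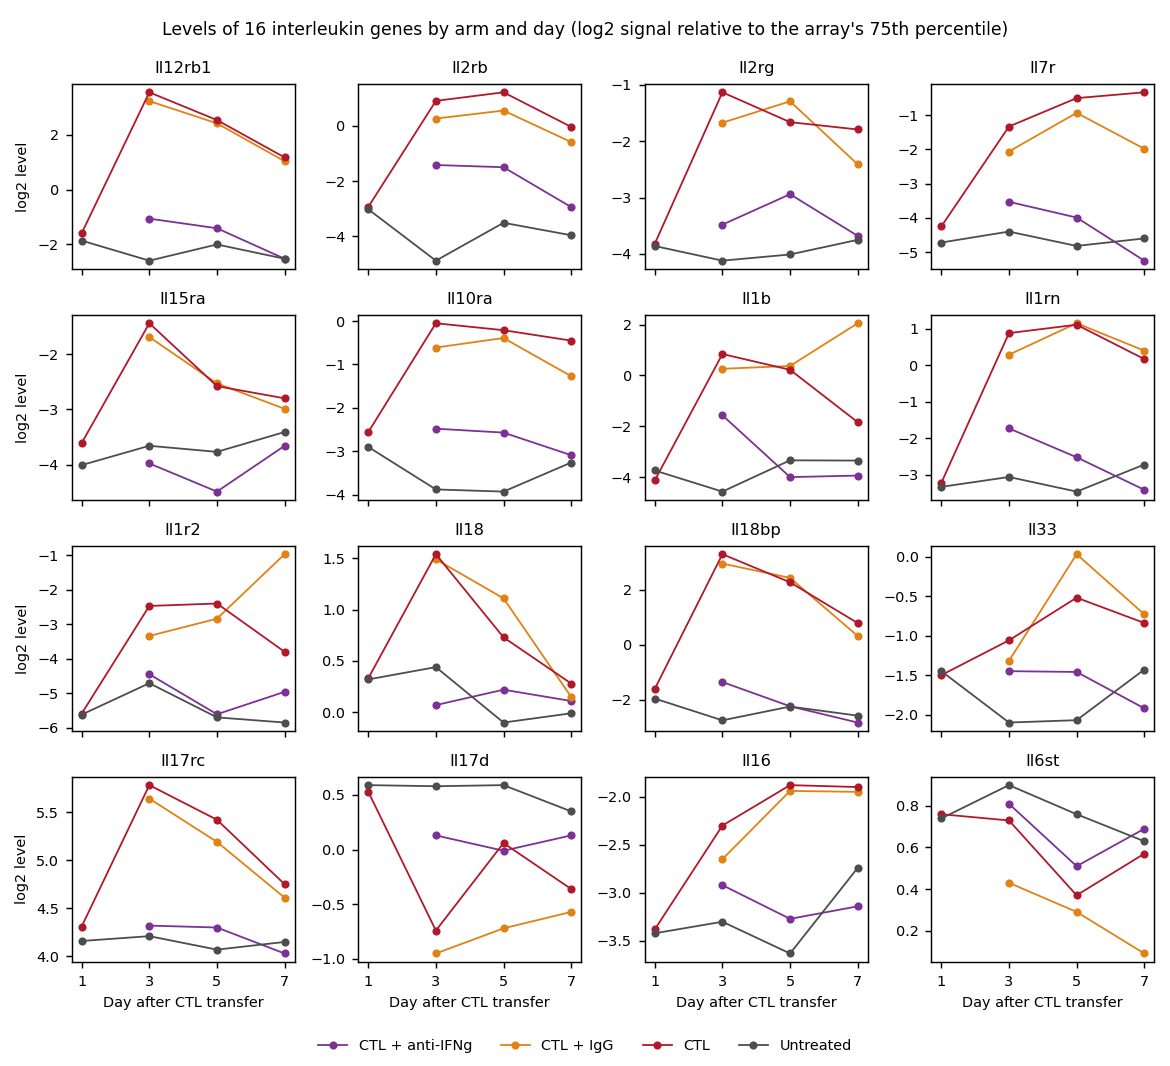
Levels of 16 genes (vertical axis, log2 signal minus the array's 75th percentile) by day after CTL transfer (horizontal axis), 1 array per point, with lines joining arrays of an arm. CTL and CTL + IgG run together for most genes, CTL + anti-IFNg lies near untreated for Il1rn and Il18bp and between the arms for Il2rb, and CTL day 1 lies near untreated day 1.

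CTL + IgG tumours were also set against untreated tumours, which uses arrays of both comparisons above. Of the 39 genes 19 passed, 15 higher and 4 lower, where 18.8% of all genes passed, 7.58% higher and 11.3% lower. Il12rb1 rose by 4.59 ± 0.40 (CTL alone 4.78 ± 0.40), Il1b by 4.65 ± 0.92 (3.49 ± 0.92), Il18bp by 4.42 ± 0.49 (4.63 ± 0.49) and Il2rb by 4.19 ± 0.38 (4.81 ± 0.38). Il17b, Il17d, Il20rb and Il6st were lower with CTL + IgG, at -1.37 ± 0.30, -1.25 ± 0.18, -0.99 ± 0.18 and -0.49 ± 0.10. Leaving out day 3, 5 or 7 gave counts of 9, 6 and 16, for which the share of all genes is not given here. Adding day 1 gave 11, where 10.2% of all genes passed.

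CTL + IgG against CTL alone, the check on the control antibody, gave 0 of 39 genes past the threshold in limma, where 0.012% of all genes passed. Of the 39, 33 lay below 0, with a median log2 change of -0.19, against 0.03 over all genes tested. An unadjusted p under 0.05 was found for 3113 of all 16628 genes and for 2 of the 39. These 2 were Il20rb (-0.53 ± 0.18) and Il6st (-0.29 ± 0.10), both lower with CTL + IgG on the chosen probe. A second measured Il20rb probe went the other way, with means of -2.63 with CTL + IgG and -3.66 with CTLs alone. Il20rb and Il6st are among the 3 genes that were higher with the antibody than with IgG, a comparison that uses the same CTL + IgG arrays.

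CTL + anti-IFNg against untreated tumours asked what remained of the CTL effect under the block. In limma 0 of 39 genes passed, where 0.162% of all genes did. An unadjusted p under 0.05 was found for 1166 of all 16629 genes and for 4 of the 39: Il2rb, Il10ra, Il22ra1 (-0.59 ± 0.23) and Il17b (-0.72 ± 0.30). Il22ra1 was well above background on 0 CTL + anti-IFNg arrays. Il2rb was 2.16 ± 0.38 higher (95% interval 1.29 to 3.04, adjusted p = 0.125), above untreated on each of the 3 days, and it passed with quantile normalization. Il10ra was 0.98 ± 0.27 higher (adjusted p = 0.466). Il12rb1, Il1rn and Il18bp had 0.70 ± 0.40, 0.52 ± 0.41 and 0.38 ± 0.49, with intervals that include 0. Il1b had 0.58 ± 0.92, and its difference was 3.01 on day 3 and -0.66 and -0.59 on days 5 and 7.

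On day 1 the CTL effect was small in most members. Il2rb, Il12rb1 and Il10ra had -2.94, -1.59 and -2.56 in CTL tumours and -3.02, -1.86 and -2.90 in untreated tumours, differences of 0.08, 0.27 and 0.34. An interaction term set the CTL effect of days 3, 5 and 7 against that of day 1 on all 14 arrays, with day 1 as 1 pair of arrays assumed to vary like the rest. It passed for these 3 genes, where 1.04% of all genes passed: Il2rb by 4.72 ± 0.76 (adjusted p = 0.0359), Il12rb1 by 4.50 ± 0.81 (adjusted p = 0.0484) and Il10ra by 3.11 ± 0.54 (adjusted p = 0.0458). None of the 3 passed without day 3, without day 5 or without the CTL array of day 5, and without day 7 Il18bp passed with them. Il18bp and Il1rn had 4.28 ± 0.97 and 3.69 ± 0.83 (adjusted p = 0.0996 and 0.0981). Il20rb had no value on untreated day 1, so 38 genes were compared. Of these, 12 had an unadjusted p under 0.05, as did 2432 of all 16627 genes.

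Several unmeasured genes lay higher with CTLs while staying under the limit for being measured. Il18r1, the IL-18-binding receptor chain, had -3.41, -3.29 and -4.06 in CTL tumours on days 3, 5 and 7 against -6.69, -6.65 and -6.51 in untreated tumours, and was well above background on 2 arrays. Its accessory chain Il18rap had -4.42, -4.51 and -6.09 against -6.72, -6.60 and -6.54, on 0 arrays. Il27ra, the IL-27 receptor, had -3.72, -3.86 and -4.09 against -5.87, -5.80 and -4.71, on 1 array. A fit with no filter on dim probes called these 3 genes higher with CTLs. Il6 had -4.04 on CTL day 3, its only array well above background, against -6.64 in untreated tumours on that day. For these genes the levels in untreated tumours and on most or all CTL arrays are bounds, and no fold is given. A probe near background can differ between these arms too. Il8ra, well above background on 0 arrays, had means of -6.05 with CTLs and -6.64 in untreated tumours over days 3, 5 and 7. The part of such a shift in the calls without a filter was not tested.

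Several members lie in clusters on the genome. The probes of Il1r2, Il1r1, Il1rl2, Il1rl1, Il18r1 and Il18rap lie in a row on chromosome 1, from chr1:40067715-40067774 for Il1r2 to chr1:40493430-40493489 for Il18rap (build mm8, from the files). Of these 6 neighbours, Il1r2 was called, Il1r1 was measured and not called, and the other 4 were not measured. Il17rc lies at chr6:113448848-113448907, beside Il17re at chr6:113435930-113435989, which was not measured. The leading receptor probes lie apart, Il2rb at chr15:78307934-78307993, Il12rb1 at chr8:73750279-73750338, Il10ra at chr9:45005149-45005208 and Il7r at chr15:9450946-9451005. Il18bp was probed at chr7:101889407-101889466, Il1rn at chr2:24172614-24172673 and Il1b at chr2:129056052-129056111. Exon annotation of that build was not used here.

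Promoters were read for the members because so many moved together with and without interferon gamma block. RefSeq promoters of GRCm38.p6, 250 bases before to 50 bases after the start site, matched 66 of 82 members with 81 promoters. They were searched on both strands for TTCNNNGAA, the palindrome that STAT dimers bind (GAS), and for GAAANNGAAA, a core of the interferon response element (ISRE). The patterns share the letters GAA, so 1 stretch can match both, and the Il19 promoter holds both at separate places, while Il4 has one in each of its promoters. TTCNNNGAA was in 12.3% of member promoters and 8.30% of all 32851 promoters, and GAAANNGAAA in 3.70% and 3.44%. Of 14 genes called with CTLs that had a promoter, TTCNNNGAA was in 3, Il17d, Il1r2 and Il7r, and GAAANNGAAA in 0. Printed here are 2 receptors whose promoter holds the STAT palindrome, in capitals, and Il18bp, which holds neither motif and had one of the largest changes with the antibody. Each runs 5′ to 3′ on the gene's strand: Il7r at chr15:9529827-9530126 on the minus strand, Il1r2 at chr1:40085843-40086142 on the plus strand and Il18bp at chr7:102018183-102018482 on the minus strand.
Il7r: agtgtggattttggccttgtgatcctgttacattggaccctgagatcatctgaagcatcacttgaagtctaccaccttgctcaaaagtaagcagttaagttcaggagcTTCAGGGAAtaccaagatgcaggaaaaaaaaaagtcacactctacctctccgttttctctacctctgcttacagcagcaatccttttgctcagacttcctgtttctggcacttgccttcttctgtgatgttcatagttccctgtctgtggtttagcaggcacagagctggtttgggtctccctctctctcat
Il1r2: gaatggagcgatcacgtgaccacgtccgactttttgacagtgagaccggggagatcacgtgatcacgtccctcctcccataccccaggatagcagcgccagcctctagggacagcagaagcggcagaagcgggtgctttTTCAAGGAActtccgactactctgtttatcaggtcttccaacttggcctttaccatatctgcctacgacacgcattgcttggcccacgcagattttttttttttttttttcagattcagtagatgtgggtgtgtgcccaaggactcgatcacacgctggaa
Il18bp: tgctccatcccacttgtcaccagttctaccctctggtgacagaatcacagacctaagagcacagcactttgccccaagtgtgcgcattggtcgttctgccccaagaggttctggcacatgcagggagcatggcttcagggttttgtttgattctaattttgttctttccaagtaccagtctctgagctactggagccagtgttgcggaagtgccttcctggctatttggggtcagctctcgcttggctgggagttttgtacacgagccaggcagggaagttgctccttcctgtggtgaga
The first base of the palindrome lies at -142 from the start site in Il7r and at -111 in Il1r2. A match of these letters is not evidence of binding, and no match says only that they are not in this window.

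Genes that share the pathways of the members moved beside them. Of receptor chains and subunits of interleukins with other names, 8 were measured, and 4 were higher and 1 lower with CTLs, while 1 was higher and 4 were lower with the antibody. The IL-4 receptor chain Il4ra had 1.74 ± 0.14 with CTLs and -1.27 ± 0.14 with the antibody, Ebi3, the partner of Il27, 2.43 ± 0.22 and -1.36 ± 0.22, and Csf2rb2, the IL-3-specific beta chain, 2.84 ± 0.29 and -1.73 ± 0.29. Of 21 measured Janus kinases, STATs and their inhibitors, 10 were higher with CTLs and 8 lower with the antibody. The IL-12 signal transducer Stat4 had 3.13 ± 0.26 and -1.67 ± 0.26, and the feedback inhibitor Socs3 1.65 ± 0.23 and -1.55 ± 0.23. Of 12 measured genes of IL-1 and IL-18 processing and signalling, 7 were higher with CTLs and 6 lower with the antibody. Casp1, the protease that matures IL-1 beta and IL-18, had 3.26 ± 0.26 and -2.56 ± 0.26. The CTL and antibody comparisons rest on different arrays. Between CTL + anti-IFNg and untreated tumours, 0 genes of these 3 lists passed, where 0.162% of all genes did. Stat4 was 1.48 ± 0.26 above untreated tumours there (adjusted p = 0.125). The other genes named here lay between 0.11 (Socs3) and 0.78 (Csf2rb2) above untreated tumours.

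Markers of immune cells moved with the members. Of 10 T cell markers, all measured, 9 were higher with CTLs and 6 lower with the antibody. Their mean level on days 3, 5 and 7 lay between -3.12 and -2.21 with CTL + anti-IFNg, -1.97 and -0.97 with CTL + IgG, -1.57 and -0.75 with CTLs, and -4.31 and -3.41 in untreated tumours. All 3 measured natural killer markers were higher with CTLs and lower with the antibody, while Ncr1 and Eomes were not measured. Of 7 monocyte and macrophage markers 6 were higher and 5 lower, with mean levels of -2.37 to -1.50 with CTL + anti-IFNg, -0.61 to -0.04 with CTL + IgG, -0.31 to 0.00 with CTLs and -2.47 to -2.27 in untreated tumours. Of 3 measured neutrophil markers 1 was higher with CTLs and 2 lower with the antibody, with Mmp9 not measured. On CTL + IgG arrays their mean level reached 1.25, and the highest on any CTL array was -0.75. Of the other lists, 1 of 3 dendritic, 1 of 3 B cell, 3 of 4 keratinocyte and 1 of 4 fibroblast markers were higher with CTLs, and 1 of 2 mast cell and 1 of 4 endothelial markers lower. With the antibody, 2 of 4 endothelial markers, Kdr (1.47) and Cdh5 (1.33), and 1 of 2 mast cell markers, Kit (1.07), were higher. The median change was 0.57 over the endothelial and 0.31 over the mast cell markers. Il17d, Il6st and Il20rb were higher as well, and 1 of 3 B cell markers was lower. Between CTL + anti-IFNg and untreated tumours, where Il2rb was 2.16 higher, 2 of 10 T cell and 1 of 3 dendritic markers were higher. These were Cd3d (4.28, adjusted p = 0.0352), Cd8a (4.03, adjusted p = 0.00278) and Itgax (2.07, adjusted p = 0.0455). The median change was 0.73 over the T cell markers and -0.24 over the dendritic markers, and 0.162% of all genes passed. Keratinocyte markers had mean levels of -3.70 to -3.40 with CTL + anti-IFNg, -3.35 to -2.92 with CTL + IgG, -2.16 to -1.92 with CTLs and -3.47 to -2.54 in untreated tumours. The part of these cell markers in the interleukin results was not tested.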

How the data were processed

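Per the labels, RNA of pooled B16F10 tumours was hybridised to 14 one-colour (Cy3) Agilent arrays. Quantification was by Agilent Feature Extraction 9.5, as the submitters' processing notes state. The authors deposited scanner files with linear spot intensity, of which the processed signal is background-subtracted, per the file headers. A log2 table deposited by the authors correlated at r = 1 with the log2 processed signal of each array, with each column's 75th percentile at about 0 and column medians from -3.54 to -3.14.

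From the processed signal, log2 was taken, the array's 75th percentile over 43379 spots subtracted, outlier spots left out and spots of a probe averaged. The probe with the highest mean stood for each gene, and genes well above background on at least 3 arrays were tested. The fit used the 12 arrays of days 3, 5 and 7 with arm and day as terms (limma 3.58.1, lmFit and eBayes, in R 4.3.3). Each day is 1 slide, so same-day differences lie within a slide. Every arm kept 1 position on all slides, and position and arm cannot be told apart. Of 18 same-day pairs of arrays, paired by the labels' day, 12 deviated from their arm means with r over 0.1 across genes (median 0.136). Of 41174 probes, 24496 were matched to a gene table by accession for the alternative with updated names, and 69 of the 82 members were.

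Members, lists, the choice of 12 arrays and the genes named were set with earlier results of these data known. Named were members past the threshold in either main comparison, a fixed set of well-known members, and up to 3 genes a list by smallest p. Where no array of an arm was well above background, a fold is a bound: on each array of that arm, the probe's signal was raised to the dimmest well-detected signal if it lay below. On simulated data for CTL against untreated (16628 genes), 62% of 100 genes changed by 1 on the log2 scale and 86% of 100 changed by 2 were recovered. Alternatives tried are described in the closing section. The number of arrays limits the precision.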

Additional observations from a re-analysis of the deposited data

Results flagged for a closer look

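With 4 arrays in an arm, 1 array stood far from the other 3 in 5 of 77 sets of levels examined, and chance alone marks about 1 in 20. In untreated tumours on day 5, Il1f10 had -0.79, where the other untreated arrays had -4.73 to -4.06, and Il24 had -4.34, where the others had -3.36 to -3.27. Il17d had 0.35 on untreated day 7 and 0.58 to 0.59 on the other untreated arrays. On CTL day 1, Il10ra had -2.56, against -0.45 to -0.05 on the later CTL arrays, and Il28ra had -1.12, against -0.68 to -0.65.

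The CTL effect on days 3, 5 and 7 differed from that of day 1, by the interaction term, for Il2rb (4.72), Il12rb1 (4.50) and Il10ra (3.11). Day 1 is a single pair of arrays.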

How the results depend on the processing

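Of 728 values of single genes under 14 alternatives, 580 kept their direction and their side of the threshold, 138 no longer passed, 9 newly passed and 1 reversed, Il17b in CTL against untreated tumours, at 0.33 with normexp. Among the 14 is the authors' deposited table, which matched the values used here at r = 1, so agreement there was fixed in advance. Counts that left the range of 1.5 times were these. For CTL against untreated (19), the count was 10 with all 14 arrays and 9 with only the arms compared, and leaving out each day gave 7 to 18. For CTL + anti-IFNg against CTL + IgG (16), it was 10 with normexp, 10 with no filter on dim probes, 0 with all 14 arrays and 9 with only the arms compared, and leaving out each day gave 0 to 9. For CTL + IgG against untreated (19), it was 11 with normexp, 11 with all 14 arrays and 12 with only the arms compared, and leaving out each day gave 6 to 16. For CTL + anti-IFNg against untreated (0), quantile normalization gave 1, Il2rb. For the interaction (3), it was 1 with normexp, 0 with no filter, 0 with only the arms compared and 0 without the CTL array of day 5, a choice made after seeing the data, and leaving out each day gave 0 to 4. CTL + IgG against CTL alone stayed at 0 in limma under all alternatives run. With the pairing by day dropped (no replicate block), the counts were 18, 14, 18, 0 and 0 for the arm comparisons and 0 for the interaction. In fits with fewer arrays the spread has fewer degrees of freedom, and for these fits the share of all genes that passed is not given here. The cause of the other moves was not tested. Normexp moved the median of all genes by 0.18 in CTL against untreated. The share of calls that were higher, over all genes, was then 51.5% against 32.2% there, 30.2% against 52.7% for the antibody and 58.8% against 40.2% for CTL + IgG. Calls over all genes changed in number too. For the antibody, normexp gave 269 higher and 623 lower, against 1124 and 1007 in the main fit. For CTL + IgG against untreated it gave 772 and 541, against 1261 and 1872, and for the interaction 67 and 7, against 142 and 31. Genes such as Il17b, Il1r2 and Il15ra lie near background, where the signal limits what can be compared.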

Other observations

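A few dim members, picked after their values were seen, had 1 or 2 high arrays. Il3 was well above background on 2 arrays, with -2.50 on CTL day 5 and -3.56 on CTL day 1, and lay between -6.72 and -5.89 on the 4 untreated arrays. Il23r had -2.96 on day 3 with CTL + anti-IFNg and lay at -5.17 or below on the other arrays. Il20ra had -3.59 on day 5 with CTL + anti-IFNg and -3.73 on untreated day 7, with -5.27 or below elsewhere. Il1f5, an antagonist of the IL-36 receptor, had -3.46 on CTL day 1 and -5.46 or below elsewhere. All 4 fell below the limit for being measured and were not among the 39 genes.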
